A study of Homo sapiens with 4 samples.

Results

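RAB proteins are small GTPases of the RAS superfamily that mark the membranes of the secretory and endocytic routes and recruit the motors, tethers and coats that move and fuse vesicles. Each cycles between a GDP-bound form, held in the cytosol by GDP dissociation inhibitors, and a GTP-bound form on a membrane, under the control of exchange factors and GTPase activating proteins. In liver cells they serve the secretion of plasma proteins, the uptake and recycling of receptors, lipid droplets and autophagy.

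The genes described here are those whose symbol in the array annotation is RAB followed by a number and at most 1 letter, which gave 60 of the 22465 genes tested. The rule used names only and no measured value. Of 64 RefSeq gene symbols of that form, 4 were not analysed here as members: RAB1C, which RefSeq lists as a pseudogene, RAB7B, and RAB6C and RAB34, which appear only on rows shared with another symbol. RAB33B alone had more than 1 row, and its brightest row was used.

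The samples were cultures of MHCC-LM3, a human line of hepatocellular carcinoma, exposed for 24 h either to 50 µM zerumbone, a sesquiterpene of ginger plants, or to the solvent DMSO, with 2 arrays in each group and 4 in all. Both groups are the same line, and no other agent is named for either. The number of arrays limits the precision. The labels do not state whether the 2 arrays of a group had cultures of their own, and the p-values therefore reflect just the array-to-array spread here, possibly technical. Array titles run in sequence through DMSO and then zerumbone, so a processing order that followed them cannot be told apart from the groups. The question put to the RAB genes is which of them differ in transcript level under zerumbone.

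Every value is the log2 expression value the authors deposited, and every difference is zerumbone minus DMSO on that scale. The deposited values run higher than a scanner can read, so an unknown step after RMA, the authors' normalization, may have altered the log2 scale, and each fold holds only on the scale as deposited. Levels of different genes come from different probes and are not compared. A gene is said to have risen or fallen when it passed an adjusted p of 0.05 in limma, adjusted over all 22465 genes by the Benjamini-Hochberg method. A gene is called at background level in a group when both its arrays read less than the 95th percentile of the 23 antigenomic control rows, which was 4.54 to 5.10 depending on the array. A total of 41 RAB genes lay above that level on all arrays, 16 lay at background in both groups, 2 (RAB20 and RAB36) in the zerumbone group, and 1 (RAB26) lay under it on some arrays.

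Facts about the whole series bear on these values in a few ways. Array medians over the transcript clusters were 3.83 to 3.86 under DMSO and 3.92 to 3.96 under zerumbone. The arrays carry no batch label. Of 10 measured hepatocyte and liver cancer markers 7 were at background level in both groups, AFP and GPC3 among them, and ALB was at background under DMSO, whereas the epithelial keratins KRT8 and KRT18 were measured and fell by 1.31 and 0.75. All 5 leukocyte markers were at background in both groups. Of 6 endothelial markers 5 were at background, and KDR, a growth factor receptor, fell by 1.93. Of 5 fibroblast markers 3 were at background, and LUM, a matrix proteoglycan, fell by 1.22. DCN was called lower too (limma adjusted p 0.0416), but lay at background under zerumbone and under it on DMSO replicate 2. The log2 of the summed level was 16.48 to 16.56 under DMSO and 15.32 to 15.55 under zerumbone for the hepatocyte list. It went from 8.21 to 8.31 down to 6.99 to 7.05 for the endothelial list and from 7.40 to 7.51 down to 6.74 to 6.78 for the fibroblast list, and was 5.96 to 5.98 and 6.05 to 6.10 for the leukocyte list. Whether these markers have a part in the results for the RAB genes was not tested.

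RAB genes differed in both directions under zerumbone. RAB27B, of regulated secretion, fell 16.4-fold. RAB38, of lysosome-related organelles, and the secretory RAB3D and RAB3B fell 2.86-fold, 2.44-fold and 2.27-fold. RAB22A, of early endosomes, RAB18, of the endoplasmic reticulum, RAB21, of early endosomes, and RAB6A, of the Golgi, rose 2.75-fold, 2.40-fold, 2.21-fold and 2.17-fold. RAB7A, the late endosomal RAB, had a difference of -0.045, which did not pass.

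By count, 24 of 60 members (40.0%) passed, 11 higher (18.3%) and 13 lower (21.7%). Among all genes tested 36.0% passed, 18.4% higher and 17.7% lower, so the family was called about as often as genes in general. Dim genes, under background on at least 1 array of each group, were left out of a further fit. In it 73.7% of 10349 genes passed, 49.5% of these higher. The members kept in that fit were the 41 above background on all arrays, and 30 of the 41 passed, 50.0% of these higher. Counts below, by place of action or by list, stand beside these shares. Those counts keep their dim genes, unlike the fit that gave 73.7%. The median difference was 0.01 over the members and 0.07 over all genes, and the median absolute differences were 0.23 and 0.18. Differences of at least 1 were counted for 4 members that rose and 4 that fell. Among all 22465 genes tested, 1118 rose and 1424 fell by at least 1. Of the 36 members that did not pass, 11 had an unadjusted p under 0.05. In a bulk lysate, fewer cells carrying a transcript and less of it per cell cannot be told apart.

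**Figure D1:**
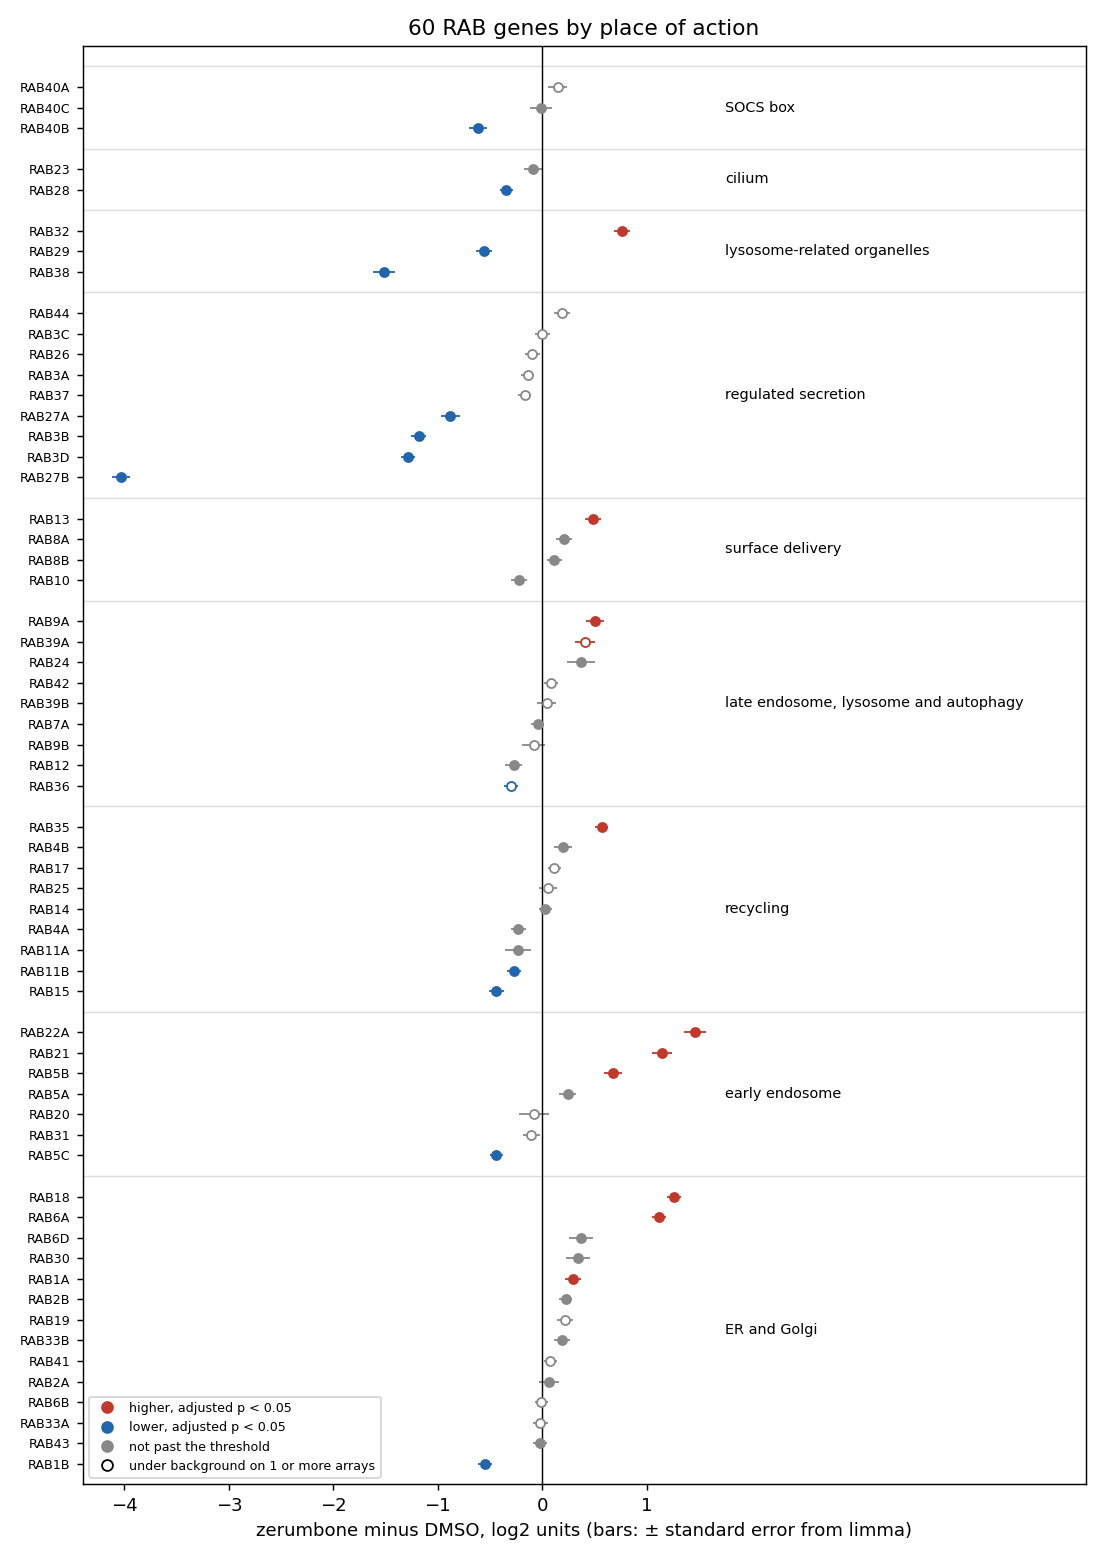
Difference of each of the 60 RAB genes in log2 units, zerumbone minus DMSO, with the limma standard error as bars, grouped by where the protein acts. Red points rose, blue points fell, grey points did not pass, and open symbols were under background on 1 or more arrays. RAB27B stands alone at -4.03, and the other members lie between -1.52 and 1.46.

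RABs of regulated secretion bring secretory granules and related vesicles to the plasma membrane. Of 9 measured, 4 fell, 0 rose and 5 did not pass, against the 17.7% of all genes that fell. With dim genes left out, 73.7% of genes passed, 49.5% of these higher. RAB27B, which docks secretory and multivesicular compartments at the cell surface, read 12.53 and 12.65 on the DMSO arrays and 8.47 and 8.64 on the zerumbone arrays. Both treated arrays lay about 4 units under both controls, a difference of -4.03 with a standard error of 0.0894 and a limma adjusted p of 4.01e-05. Its paralog RAB27A, known for melanosome and cytotoxic granule transport, read 9.16 and 9.02 under DMSO and 8.13 and 8.28 under zerumbone. The groups did not overlap, and RAB27A fell 1.84-fold (limma adjusted p 0.0014).

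RAB3 proteins control the exocytosis of synaptic vesicles and hormone granules. RAB3D, the form of exocrine granules, read 7.01 on both DMSO arrays and 5.69 and 5.76 on the zerumbone arrays. RAB3B read 12.40 and 12.30 under DMSO and 11.17 and 11.16 under zerumbone. Both fell on each treated array, RAB3D 2.44-fold (limma adjusted p 1.53e-04) and RAB3B 2.27-fold (limma adjusted p 2.39e-04). The other secretory members RAB3A, RAB3C, RAB37 and RAB44 were at background level in both groups, with differences from -0.17 to 0.19, and RAB26 was under background on some arrays. The 4 members above background on all arrays were the 4 that fell.

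The RAB27 effectors on the array were set beside RAB27A and RAB27B. This grouping was made after the values were seen and has no test of its own. Of 9, 5 fell, 1 rose and 3 were at background in both groups, where 17.7% of all genes fell and 18.4% rose. Of genes left when dim ones were removed, 73.7% passed, 49.5% of these higher. SYTL2, a synaptotagmin-like protein that tethers RAB27 vesicles to the membrane, read 9.57 and 9.60 under DMSO and 5.60 and 5.65 under zerumbone. Its 15.5-fold fall (limma adjusted p 3.50e-05) was close in size to that of RAB27B. MLPH, melanophilin, which links RAB27A to a myosin, fell by 1.37. Myosins were not among the 9, and those listed with other RAB effectors below went both ways. MYO5A rose 3.09-fold and MYO5B rose too, whereas MYO5C fell. SYTL4, granuphilin, fell by 0.91 and UNC13D, a priming factor for granule release, by 0.77. SYTL5 fell to background level under zerumbone, by at least 1.01-fold, and was under background on 1 DMSO array too. EXPH5 rose by 0.28, a call lost under median centring (adjusted p 0.110) and with any 1 array left out (0.168 and 0.107 for the DMSO arrays, 0.0868 and 0.0521 for the zerumbone arrays).

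The RAB32 branch of the family serves lysosome-related organelles such as melanosomes, and its 3 measured members split, 2 lower and 1 higher. RAB38 read 7.95 and 7.94 under DMSO and 6.29 and 6.57 under zerumbone, a 2.86-fold fall (limma adjusted p 4.17e-04). RAB32, its close relative, which also sits on mitochondria, read 7.69 and 7.77 under DMSO and 8.56 and 8.42 under zerumbone. Its groups were apart in the opposite direction, a 1.69-fold rise (limma adjusted p 0.0014). RAB29, a partner of the kinase LRRK2 at the trans-Golgi and stressed lysosomes, read 8.66 and 8.56 under DMSO and 7.99 and 8.11 under zerumbone. It fell 1.47-fold (limma adjusted p 0.00445). Whether the paralogs differ from each other in response was not tested here, in this pair or in those below.

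**Figure D2:**
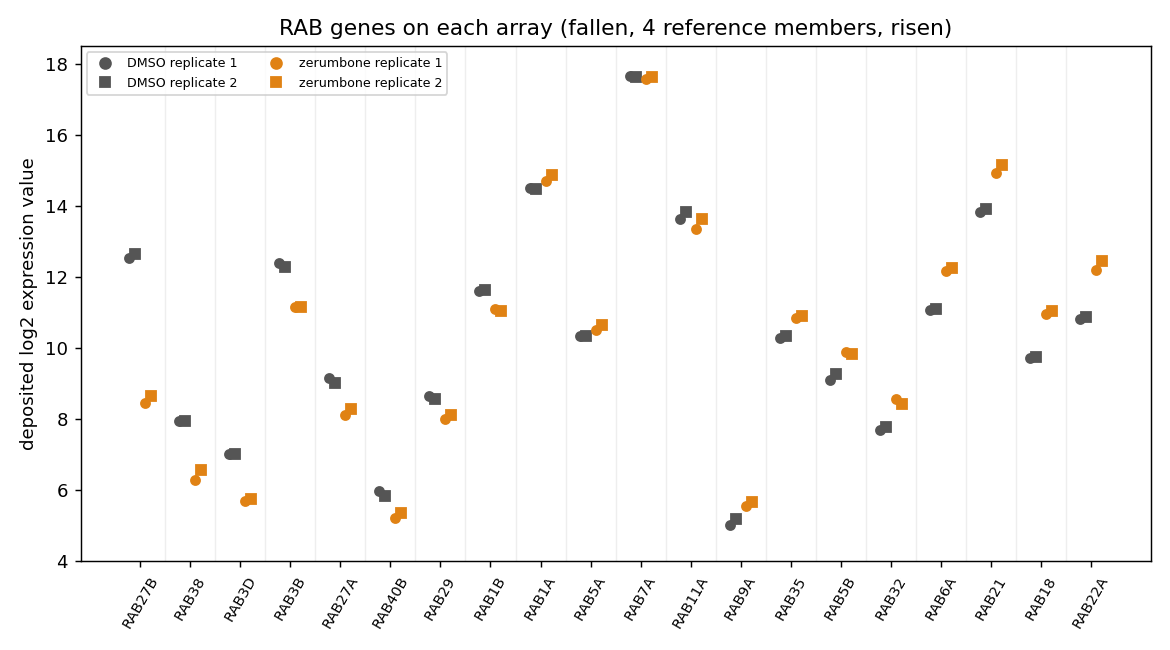
Deposited log2 value on each of the 4 arrays (grey for DMSO, orange for zerumbone, circle and square for replicates 1 and 2) for 20 of the RAB genes described array by array, with RAB5C and RAB6D given in the text alone. From left to right are 8 that fell, 4 reference members described whatever their result, and 8 that rose. The treated arrays lie clear of the controls in all but RAB7A and RAB11A. Heights of different genes are not comparable.

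Early endosomes receive cargo from the plasma membrane. Of 7 RABs that act there, 3 rose, 1 fell and 3 did not pass, against 18.4% of all genes higher. With dim genes left out, 73.7% of genes passed, 49.5% of these higher. RAB22A, which governs traffic between early and recycling endosomes, read 10.82 and 10.89 under DMSO and 12.19 and 12.44 under zerumbone. It was the largest rise of the family at 1.46 with a standard error of 0.103 (limma adjusted p 4.34e-04). RAB21, which carries integrins inward, read 13.84 and 13.92 under DMSO and 14.91 and 15.14 under zerumbone. Both treated arrays lay above both controls, a 2.21-fold rise (limma adjusted p 7.71e-04).

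The 3 RAB5 isoforms, which drive the fusion of early endosomes, did not move together. RAB5B read 9.10 and 9.27 under DMSO and 9.89 and 9.84 under zerumbone, and rose 1.60-fold (limma adjusted p 0.00265). RAB5C read 14.73 and 14.70 under DMSO and 14.26 and 14.30 under zerumbone, and fell 1.36-fold (limma adjusted p 0.0044). RAB5A read 10.35 and 10.33 under DMSO and 10.50 and 10.66 under zerumbone, 0.24 apart (limma adjusted p 0.0701). Its treated arrays were higher than both controls, but the adjusted p missed the threshold. Without zerumbone replicate 1 RAB5A passed at 0.0384. RAB20 and RAB31 differed by -0.08 and -0.11 near background level.

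RAB5 effectors also went both ways, in a grouping made after the values were seen. Of 6, 3 rose, 2 fell and 1 did not pass, where 36.0% of all genes passed, and 73.7% of those left when dim ones were removed. RBSN, rabenosyn-5, which couples RAB5 and RAB4 domains, rose by 1.27, and RABEP1, rabaptin-5, by 0.65. EEA1, the tether of early endosomes, fell by 0.78, and APPL2, an adaptor of a subset of them, by 0.53. APPL1 rose by 0.23 at a limma adjusted p of 0.0499. That call was lost under median centring (0.206) and cyclic loess (0.162), and with any 1 array left out (0.233 and 0.165 for the DMSO arrays, 0.133 and 0.0661 for the zerumbone arrays).

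Windows of 250 bases before the start site are shown for 5 genes: the largest rise, RAB22A, the strongly risen RAB21, the oppositely moving paralogs RAB5B and RAB5C, and the largest fall, RAB27B. They are RefSeq sequences of GRCh38.p14, written 5′ to 3′ on the gene's strand. Capitals mark matches to the motifs searched. RAB5B and RAB27B have a further listed start site each, and the window of the first is shown.
RAB22A, chr20:58309465-58309714, plus strand: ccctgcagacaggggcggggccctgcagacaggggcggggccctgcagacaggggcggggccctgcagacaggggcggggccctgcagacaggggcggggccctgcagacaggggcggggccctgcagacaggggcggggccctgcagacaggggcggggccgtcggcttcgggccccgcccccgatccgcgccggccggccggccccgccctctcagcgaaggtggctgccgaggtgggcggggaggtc
RAB21, chr12:71754613-71754862, plus strand: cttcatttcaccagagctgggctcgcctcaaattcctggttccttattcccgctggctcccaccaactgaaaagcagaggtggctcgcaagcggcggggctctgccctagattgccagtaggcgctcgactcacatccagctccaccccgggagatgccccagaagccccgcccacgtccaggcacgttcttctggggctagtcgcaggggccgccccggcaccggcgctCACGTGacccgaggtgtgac
RAB5B, chr12:55973699-55973948, plus strand: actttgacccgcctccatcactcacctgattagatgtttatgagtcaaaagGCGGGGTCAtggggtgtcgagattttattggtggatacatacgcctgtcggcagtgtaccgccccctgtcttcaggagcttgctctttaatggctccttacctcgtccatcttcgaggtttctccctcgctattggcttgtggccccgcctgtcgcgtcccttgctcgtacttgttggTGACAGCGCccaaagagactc
RAB5C, chr17:42154990-42155239, minus strand: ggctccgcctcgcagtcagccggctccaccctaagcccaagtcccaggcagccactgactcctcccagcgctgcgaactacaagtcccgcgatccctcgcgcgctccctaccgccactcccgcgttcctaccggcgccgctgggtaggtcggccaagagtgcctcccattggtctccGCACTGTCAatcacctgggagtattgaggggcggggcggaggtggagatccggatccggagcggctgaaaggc
RAB27B, chr18:54717607-54717856, plus strand: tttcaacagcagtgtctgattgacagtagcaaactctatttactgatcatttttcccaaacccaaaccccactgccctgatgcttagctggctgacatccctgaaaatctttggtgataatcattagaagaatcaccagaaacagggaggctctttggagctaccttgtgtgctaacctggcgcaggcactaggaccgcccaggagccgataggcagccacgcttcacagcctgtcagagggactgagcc

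A set of 4 motifs was searched on both strands in those windows: the E-box CACGTG, the C/EBP-ATF response element TGATGNAAT, the antioxidant response element TGACNNNGC and the heat shock element. A total of 47 members had 65 windows. The E-box was in 5 of the 65 (7.69%), against 6.34% of all 35116 windows, and the antioxidant element in 11 (16.9%), against 10.9% of all. The C/EBP-ATF element and the heat shock element were in 0 member windows, and in 0.888% and 0.441% of all. RAB21 has its E-box 20 to 15 bases before the start, RAB5B its antioxidant elements 199 to 191 and 21 to 13 bases before, and RAB5C 1 at 73 to 65 bases before. In RAB24 and RAB5A an E-box and an antioxidant element overlap. By call, the antioxidant element was in 3 of 13 windows of members that rose, 2 of 15 of those that fell and 6 of 37 of those that did not pass. Windows of 1 gene can overlap and so share a match. The median GC content was 64.8% over member windows and 58.0% over all, with 80.8% for RAB22A and 50.4% for RAB27B as shown. A match describes letters, not binding.

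RABs of the endoplasmic reticulum and Golgi direct the early secretory route. Of 14 measured, 3 rose, 1 fell and 10 did not pass, and 4 were at background in both groups. RAB18, which acts on the endoplasmic reticulum and lipid droplets, read 9.73 and 9.75 under DMSO and 10.95 and 11.05 under zerumbone. The groups were 1.26 apart with a standard error of 0.0675, a 2.40-fold rise (limma adjusted p 1.92e-04). RAB6A, which runs retrograde and exocytic carriers at the Golgi, read 11.07 and 11.10 under DMSO and 12.16 and 12.25 under zerumbone. It rose 2.17-fold (limma adjusted p 2.62e-04). RAB6C and RAB6D are intronless copies close to RAB6A in sequence, so probes may be shared, and the RAB6D row read 5.30 and 5.27 under DMSO and 5.81 and 5.50 under zerumbone. RAB6D did not pass (limma adjusted p 0.0656), but did without zerumbone replicate 2 (0.0119).

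The RAB1 pair, which opens the route from endoplasmic reticulum to Golgi, differed in direction. RAB1B read 11.59 and 11.65 under DMSO and 11.11 and 11.04 under zerumbone, a 1.46-fold fall (limma adjusted p 0.00261). RAB1A read 14.50 and 14.49 under DMSO and 14.71 and 14.86 under zerumbone, a 1.23-fold rise (limma adjusted p 0.0377). The rise of RAB1A lost its call under median centring (0.147) and cyclic loess (0.0801), and without zerumbone replicate 2 (0.0916) or either DMSO array (0.162 and 0.175). The fall of RAB1B held under all settings tried. RAB2A and RAB2B, which act between the compartments and in autophagosome clearance, differed by 0.06 and 0.22, RAB30 by 0.35 and RAB33B, a partner of ATG16L1, by 0.19. RAB30 passed without zerumbone replicate 1 (0.0130). RAB43 differed by -0.02. RAB6B, RAB19, RAB33A and RAB41 were at background level in both groups.

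Recycling RABs return internalised receptors to the surface. Of 9 measured, 1 rose, 2 fell and 6 did not pass. RAB35, which serves fast recycling and cytokinesis, read 10.29 and 10.33 under DMSO and 10.84 and 10.92 under zerumbone. Its rise of 0.57 stood clear of the spread in both groups (limma adjusted p 0.00228). RAB15 and RAB11B fell by 0.44 and 0.27. RAB15 lost its call without DMSO replicate 2 (0.0623), and RAB11B without zerumbone replicate 1 (0.0912) or either DMSO array (0.146 and 0.167).

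RAB11A, the main RAB of the recycling endosome, read 13.64 and 13.83 under DMSO and 13.36 and 13.65 under zerumbone. The groups overlapped, and the difference of -0.23 did not pass (limma adjusted p 0.221). RAB4A and RAB4B differed by -0.23 and 0.20 and RAB14 by 0.03, none past the threshold. RAB4A passed after median centring (0.0380). RAB17 and RAB25, RABs of polarised epithelia, were at background in both groups. Of the RAB11 family interacting proteins, 4 had rows not shared with another symbol, and were grouped after the values were seen. RAB11FIP1 and RAB11FIP5 rose, each from under background on 1 DMSO array, and the others did not pass.

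Late endosomes, lysosomes and autophagosomes carry 9 measured members, of which 2 rose, 1 fell and 6 did not pass, and 4 were at background in both groups. RAB7A, which directs late endosomes and autophagosomes to fuse with lysosomes, read 17.66 and 17.62 under DMSO and 17.56 and 17.62 under zerumbone. Its groups overlapped (limma adjusted p 0.621). RAB9A, which returns mannose 6-phosphate receptors to the Golgi, read 5.03 and 5.19 under DMSO and 5.56 and 5.67 under zerumbone. RAB9A rose 1.42-fold (limma adjusted p 0.00821), but not without DMSO replicate 1 (0.0594).

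RAB24, an atypical RAB of autophagy, was 0.37 higher (limma adjusted p 0.0913), and passed without zerumbone replicate 2 (0.0402). RAB12 had a difference of -0.27 (limma adjusted p 0.0566), and passed after median centring (0.0175) and cyclic loess (0.0210). RAB39A was among the 11 counted higher and RAB36 among the 13 counted lower, but RAB39A lay at background in both groups and RAB36 at background under zerumbone and on 1 DMSO array, so no size is given for either. Both calls were lost without either DMSO array (adjusted p from 0.0575 to 0.142), RAB39A also without zerumbone replicate 1 (0.0915) and RAB36 also without zerumbone replicate 2 (0.0664). RAB9B, RAB39B and RAB42 were at background in both groups.

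Of 4 RABs of delivery to the cell surface, RAB13, a RAB of tight junctions, rose by 0.49 (limma adjusted p 0.00604), and RAB8A, RAB8B and RAB10 differed by 0.21, 0.12 and -0.22 without passing. RAB10 passed after median centring (0.0386) and cyclic loess (0.0460). Of the RABs of the primary cilium, RAB28 fell by 0.34, a call lost without DMSO replicate 1 (0.0670) or DMSO replicate 2 (0.0853), and RAB23, a brake on hedgehog signalling, differed by -0.09. Of the RAB40 genes, whose SOCS box binds a ubiquitin ligase, RAB40B read 5.98 and 5.84 under DMSO and 5.21 and 5.37 under zerumbone and fell 1.53-fold (limma adjusted p 0.00499). RAB40C differed by -0.01 and RAB40A was at background in both groups.

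**Figure D3:**
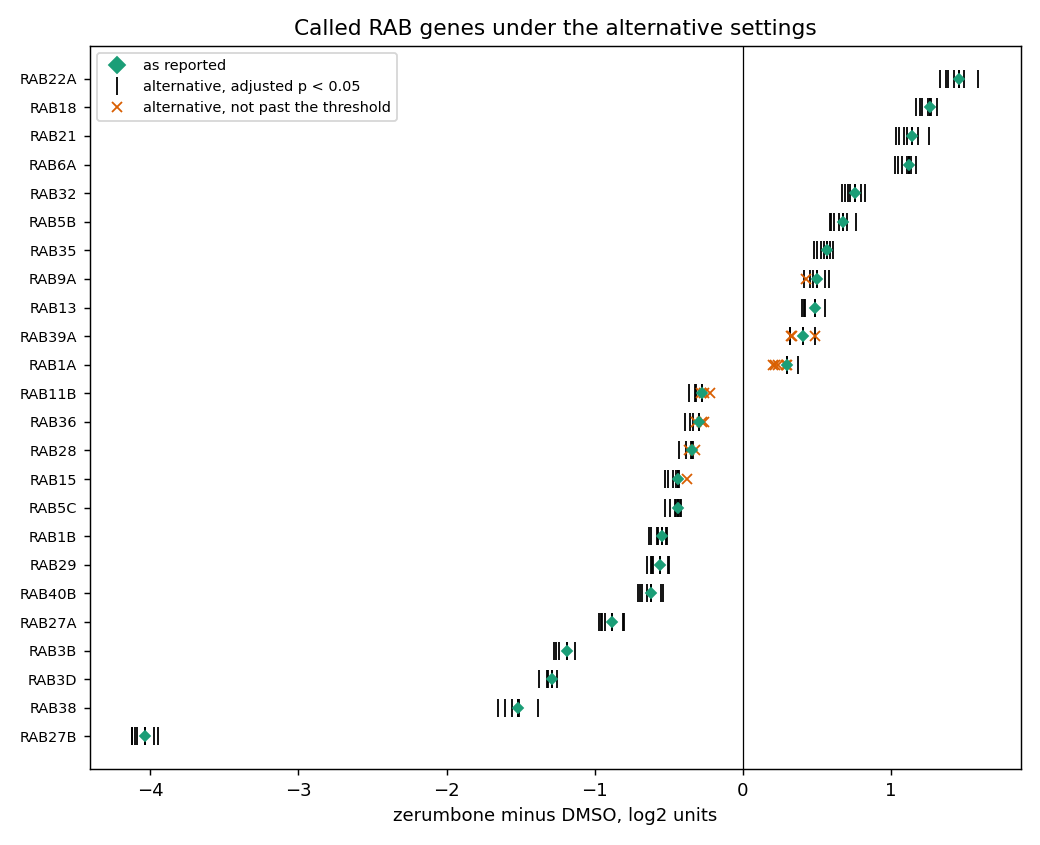
Difference in log2 units of the 24 called RAB genes as reported (green diamonds) and under 9 alternative settings (black ticks where the adjusted p stayed under 0.05, orange crosses where it did not). All values kept their sign, and the crosses lie in 7 genes whose reported differences are between -0.44 and 0.50.

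The genes that load, switch and read RABs were counted from lists of known regulators and partners. Only listed genes with a row of their own were counted. These were 31 of 38 exchange factors, 29 of 35 GTPase activating proteins, 48 of 53 effectors and 5 of 8 prenylation and recycling genes. Beside their shares called stand 36.0% of all genes and 73.7% of the 10349 genes left when dim ones are removed. Beside their medians stands 0.07 over all genes. The list shares keep dim genes, so 73.7% is not a like base for them. Above background on all arrays were 22 of 31 exchange factors, 22 of 29 GTPase activating proteins and 33 of 48 effectors. Exchange factors, which switch RABs on, had 11 of 31 higher and 9 lower (64.5% called), with a median of 0.11. RIN2, an exchange factor for RAB5, read 10.46 and 10.50 under DMSO and 6.94 and 6.91 under zerumbone, an 11.8-fold fall (limma adjusted p 3.60e-05). DENND5A, which binds RAB6, rose by 1.83. RAB3GAP1, a subunit of the exchange factor for RAB18, rose by 1.24. RAB3GAP2, on a row shared with another symbol and so not counted, differed by -0.16. It did not pass (limma adjusted p 0.316, adjusted over all 67528 transcript clusters). DENND4A, an exchange factor for RAB10, rose by 1.16.

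GTPase activating proteins, which switch RABs off, had 8 of 29 higher and 10 lower (62.1% called), with a median of 0.03. TBC1D15, which acts on RAB7 at mitochondria, read 9.06 and 9.11 under DMSO and 12.10 and 12.34 under zerumbone, an 8.79-fold rise (limma adjusted p 6.32e-05). TBC1D16, which acts on RAB4, read 8.87 and 8.84 under DMSO and 5.60 and 5.61 under zerumbone, a 9.52-fold fall (limma adjusted p 3.71e-05). TBC1D23, a trans-Golgi adaptor with a TBC domain, rose by 2.04, and TBC1D5, a regulator of RAB7 and retromer, fell by 1.69.

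Of 48 effectors, the proteins that active RABs recruit, 20 rose and 14 fell (70.8% called), with a median of 0.07. Besides SYTL2, the largest changes above background were a rise of 1.84 in MICALL1, a partner of RAB8 and RAB35 on recycling tubules. In the other direction EHBP1, which binds RAB8 and RAB10, fell by 1.74, and MYO5C, a myosin motor of secretory vesicles, fell by 1.63. The MYO5C paralogs on the list went the opposite way. MYO5A rose 3.09-fold (limma adjusted p 8.45e-05) and MYO5B 2.01-fold (limma adjusted p 3.19e-04), both above background on all arrays. In prenylation and membrane recycling, 1 of 5 genes rose and 1 fell, with a median of -0.04. CHML, an escort protein for RAB prenylation, rose by 0.86, and GDI2, a GDP dissociation inhibitor, fell by 0.35, a call lost without DMSO replicate 1 (0.101) or DMSO replicate 2 (0.0976).

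Tethering complexes that work with RABs were mixed as well. In HOPS and CORVET, the tethers of RAB7 and RAB5 membranes, 4 of 8 rose and 1 fell, with a median of 0.26. VPS11, VPS39 and VPS18 rose by 0.77, 0.66 and 0.49, and the CORVET subunit TGFBRAP1 fell by 1.12. In the exocyst, an effector of RAB11 and RAB8 routes at the surface, 4 of 9 fell and 3 rose, with a median of -0.10. EXOC2, EXOC6 and EXOC6B fell by 1.68, 1.57 and 1.14, whereas EXOC8 rose by 1.26. In TRAPP, which activates RAB1 and RAB11, 4 of 13 rose and 4 fell, with a median of 0.07. TRAPPC8 rose by 0.73 and TRAPPC1 fell by 0.83. TRAPPC4 and TRAPPC10 fell by 0.48 and 0.39, calls lost without DMSO replicate 1 (0.0715 and 0.0865) or DMSO replicate 2 (0.0650 and 0.0860).

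**Figure D4:**
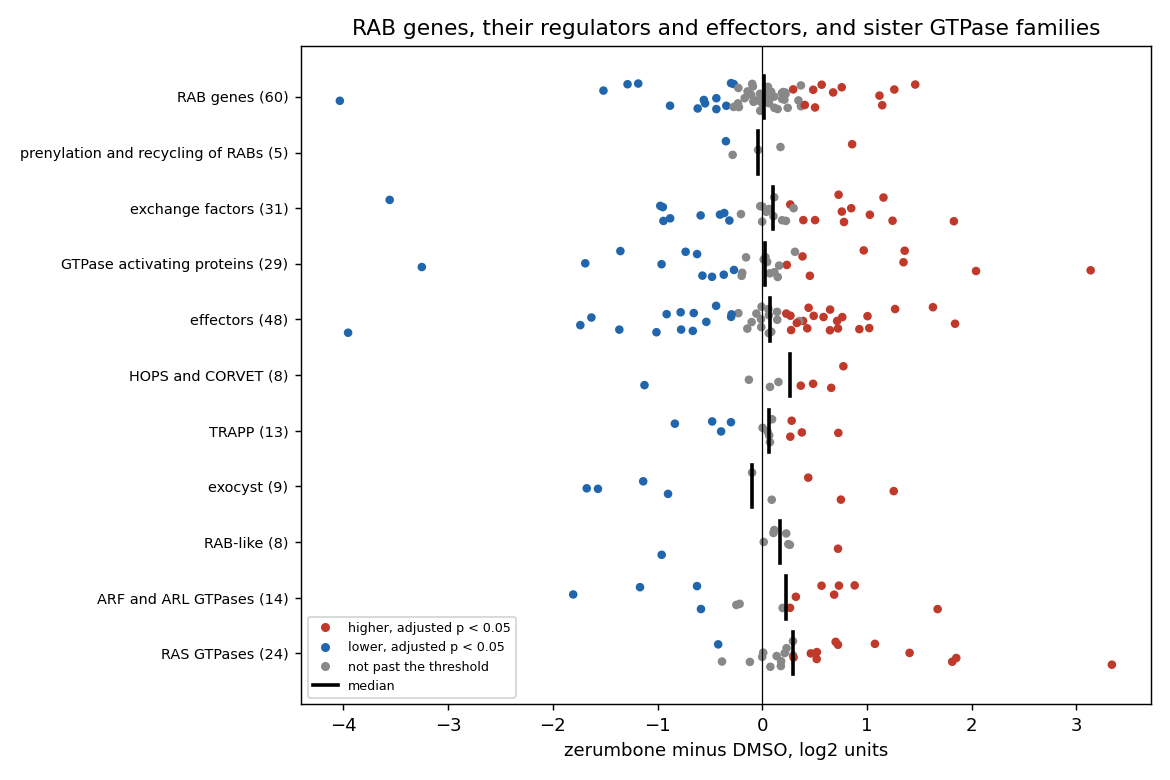
Difference of each gene in log2 units, zerumbone minus DMSO, for the 60 RAB genes, 7 lists of their regulators and partners, the RAB-like genes and 2 sister GTPase families, with the number measured in brackets and the median as a black bar. Red rose, blue fell and grey did not pass. Every median lies between -0.10 and 0.29, and RAB27B and SYTL2 are the lowest points at -4.03 and -3.96.

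The sister families are given for scale, with no test of a difference between families. Of 26 genes listed for each family, 14 ARF and ARL GTPases and 24 RAS GTPases had a row of their own. Of these 14 ARF and ARL GTPases 7 rose and 4 fell (median 0.23), and of the 24 RAS GTPases 11 rose and 1 fell (median 0.29). ARL14 and ARF4 rose by 1.67 and 0.88, SAR1A, the coat GTPase of endoplasmic reticulum exit, rose by 0.73, and ARF3 fell by 1.81. GEM, RRAS2, RIT1 and RRAS rose by 3.34, 1.85, 1.41 and 1.08. The largest rise among RAB genes, 1.46, lies under the largest in both families. Of 8 RAB-like genes RASEF rose by 0.72 and RABL6 fell by 0.96, with a median of 0.17.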

How the data were processed

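Total RNA of 4 samples was read on Affymetrix whole-transcript arrays. The authors deposited 1 table of log2 values, which the submitters' processing notes tie to RMA and the Affymetrix Expression Console, with versions and build not given in the sources used here. RMA subtracts background, equalises the distributions of arrays and summarises probes. Values reach 19.93, above a scanner's range, so a further step that altered the log2 scale is possible, and differences hold on the scale as deposited. The series text speaks of an exon array, while the row names are those of a transcriptome array, and the platform annotation was used as given. Groups came from source labels, and replicate numbers 1 and 2 were assigned here, in record order, only to name arrays.

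Of 70523 rows, 67528 transcript clusters were kept, 23781 of them with 1 gene symbol in GEO's platform annotation and 1543 with several, which were not used for gene results. The brightest row per symbol left 22465 genes. The two-sided test was limma's (3.58.1, R 4.3.3; lmFit, then eBayes), with 2 residual and 2.88 prior degrees of freedom and Benjamini-Hochberg adjustment over the 22465 genes. The steps were tested on simulated data. Precision is limited by 2 arrays a group.

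Members, lists and motifs were chosen with earlier results of these data known. Array values are given for called members above background with a difference of at least 0.5 (at most 10 each way) and for RAB1A, RAB5A, RAB7A and RAB11A, and up to 4 called genes above background are named per list. RAB5C, RAB6D, RAB3GAP2, MYO5A, MYO5B, and the effectors grouped by RAB27, RAB5 and RAB11, were described in full or named after their values were seen. A fold against a group at background is a lower bound. Alternatives were median centring, cyclic loess, an intensity trend, leaving out dim genes, averaging rows and leaving out each array. Promoters are RefSeq windows of GRCh38.p14 matched by symbol for 47 of 60 members. Plots used matplotlib 3.10.9 under Python 3.11.15. Results of 1 further gene list are not reported here.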

Additional observations from a re-analysis of the deposited data

Results flagged for a closer look

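Beside the members, 8 rows hold an antisense or divergent transcript, a pseudogene or copy, a second row of a member, or a member's symbol together with another, and lie outside the comparison of members. Their p-values were adjusted over all 67528 transcript clusters. In 2 of the 8 both zerumbone arrays lay above both DMSO arrays and above background. RAB11B-AS1, an antisense transcript of RAB11B, was 0.57 higher (limma adjusted p 0.0788). RAB30-DT, a divergent transcript of RAB30, was 0.28 higher (limma adjusted p 0.122). Neither passed the threshold. RAB6C-AS1 did pass (limma adjusted p 0.0408), but was at background level in both groups. Rows of RAB effectors and regulators whose names begin with RAB, such as RAB3GAP1, RAB11FIP1 and RAB11FIP5, were counted in the lists above. RAB3GAP2 and RAB11FIP4 were not, because their rows are shared with another symbol.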

How the results depend on the processing

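Of the 24 called RAB genes 17 (8 higher, 9 lower) stayed past the threshold in the same direction under all 9 alternatives, 7 lost it under some, named above with their values, and 0 changed sign. The count of members higher ran from 8 to 15 and lower from 9 to 17, and all genes called from 5458 to 8088. The median difference of the members was -0.074 after median centring and -0.0059 to 0.044 with 1 array left out. Among members that did not pass, 9 passed under some alternative and 13 changed sign under some. Leaving out dim genes let RAB2B, RAB4A, RAB5A, RAB6D, RAB10, RAB12, RAB24 and RAB30 pass, with fewer genes tested. RAB37 passed after median centring (0.0341) and cyclic loess (0.0312), at background level. Changes of sign after median centring were RAB14 at -0.060, RAB25 at -0.034, RAB2A at -0.025, RAB39B at -0.047, RAB41 at -0.012, RAB42 at -0.0043, and after cyclic loess RAB14 at -0.044, RAB25 at -0.036, RAB2A at -0.0077, RAB39B at -0.040, RAB41 at -0.0085. With 1 array left out the ranges were -0.27 to 0.10 for RAB20, -0.037 to 0.15 for RAB25, -0.045 to 0.17 for RAB2A, -0.076 to 0.038 for RAB33A, -0.045 to 0.13 for RAB39B, -0.054 to 0.053 for RAB3C, -0.15 to 0.12 for RAB40C, -0.058 to 0.015 for RAB43, -0.042 to 0.024 for RAB6B, -0.21 to 0.050 for RAB9B. The cause of these changes was not tested. The 2 rows of RAB33B differed by 0.19 and -0.01. Of 48 called genes named from the other lists 43 kept their call under the same alternatives, which for these genes were chosen after seeing the data. MYO5A and MYO5B were not among these 48. No paired analysis was possible because the labels give no replicate numbers, and those printed here were assigned only to name the arrays. With 2 arrays a group, a fit without 1 array has 1 residual degree of freedom and assumes that the lone array varies like the other group.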
